A study of Mus musculus with 9 samples.

Results

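Dietary fat is taken up by enterocytes as fatty acids and monoacylglycerol, rebuilt into triglyceride in the endoplasmic reticulum and exported as chylomicrons. The 10 genes described here cover that route and were taken from the count table by symbol, out of 46095 genes in all: *Cd36*, *Fabp1*, *Fabp2*, *Mogat2*, *Dgat1*, *Dgat2*, *Mttp*, *Apob*, *Apoa1* and *Apoa4*. They were compared in intestinal epithelial cells (IECs) from the colon of mice lacking *Smad4* (Smad4-knockout, n = 4 libraries) and of mice lacking both *Smad4* and *Setd2* (double-knockout, n = 5 libraries), one bulk RNA sequencing library per sample. SMAD4 is the shared signal transducer of the TGF-β and BMP pathways, and SETD2 is the methyltransferase that places the H3K36me3 mark. The deleted genes carried floxed alleles recombined by *Villin-Cre*, which acts in epithelium along the whole intestine, on a C57BL/6j background. All mice received azoxymethane (AOM, a colon carcinogen) at 10 mg/kg when 8 weeks old and, 5 days later, 2% dextran sulfate sodium (DSS, which injures the colon epithelium) in the drinking water for 5 days. The cells were released with EDTA on day 10 of the AOM/DSS treatment. *Smad4* was deleted in every library, so the comparison asks what the added loss of *Setd2* went with in an epithelium that already lacked *Smad4*, and no untreated library was analysed here.

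Fatty acids cross the brush border in part through CD36 and are bound in the cytosol by FABP1 and FABP2. MOGAT2 joins monoacylglycerol and fatty acid into diacylglycerol, and DGAT1 and DGAT2 add the last acyl chain to give triglyceride. The microsomal triglyceride transfer protein, MTTP, loads triglyceride onto APOB, the one structural protein of each particle, and APOA1 and APOA4 join its surface. Fat absorption belongs mainly to the proximal small intestine, whereas the colon absorbs little long-chain fat.

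Library totals ran from 12487129 to 17120202 counts, and levels are given as CPM, the counts of a gene per 1000000 counts after TMM scaling in edgeR. On that scale 1 read equalled 0.0594 to 0.0794 CPM. *Setd2* was 113 ± 9.45 CPM (SD, n = 4) in Smad4-knockout and 66.1 ± 14.7 CPM (n = 5) in double-knockout, lower in every double-knockout library than in any Smad4-knockout library. Colonocyte markers, led by *Ceacam1*, summed to 9176 to 11050 CPM in Smad4-knockout and 6213 to 10897 CPM in double-knockout. Double-knockout replicates 1, 2 and 5 held 3857 to 4907 counts of Y-linked genes, against at most 28 in the other 6 libraries. The sex of the mice is not given in the labels, and all 4 Smad4-knockout libraries fell on one side of this split. The results of the 8 tested genes of the set are therefore also given within those 6 Y-low libraries (4 Smad4-knockout and 2 double-knockout), or with a term for the Y-linked libraries in the fit.

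Across the 10 genes, 4 were higher in double-knockout at an adjusted p below 0.05 (quasi-likelihood test of edgeR, Benjamini-Hochberg adjusted over 14593 genes): *Fabp1*, *Dgat2*, *Mttp* and *Apoa1*. None was lower, 4 were tested and not called (*Fabp2*, *Mogat2*, *Dgat1* and *Apob*), and *Cd36* and *Apoa4* were removed by the filter on low counts. Among all genes tested, 13.3% were called, 6.76% higher and 6.54% lower. The 4 called genes were also those whose lowest double-knockout library lay above the highest Smad4-knockout library, a separation found in 8.34% of all genes tested. For *Apoa1* it rested on 2 counts in double-knockout replicate 5, under the floor of 3 counts per library used for folds. None lay wholly below, a separation found in 8.87% of all genes tested. *Apoa1* and *Fabp1* passed the filter through double-knockout alone, so the count of tested genes called is not support for the group as a whole. In bulk RNA, a change in the number of cells of one type and a change in RNA per cell cannot be told apart.

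**Figure D1:**
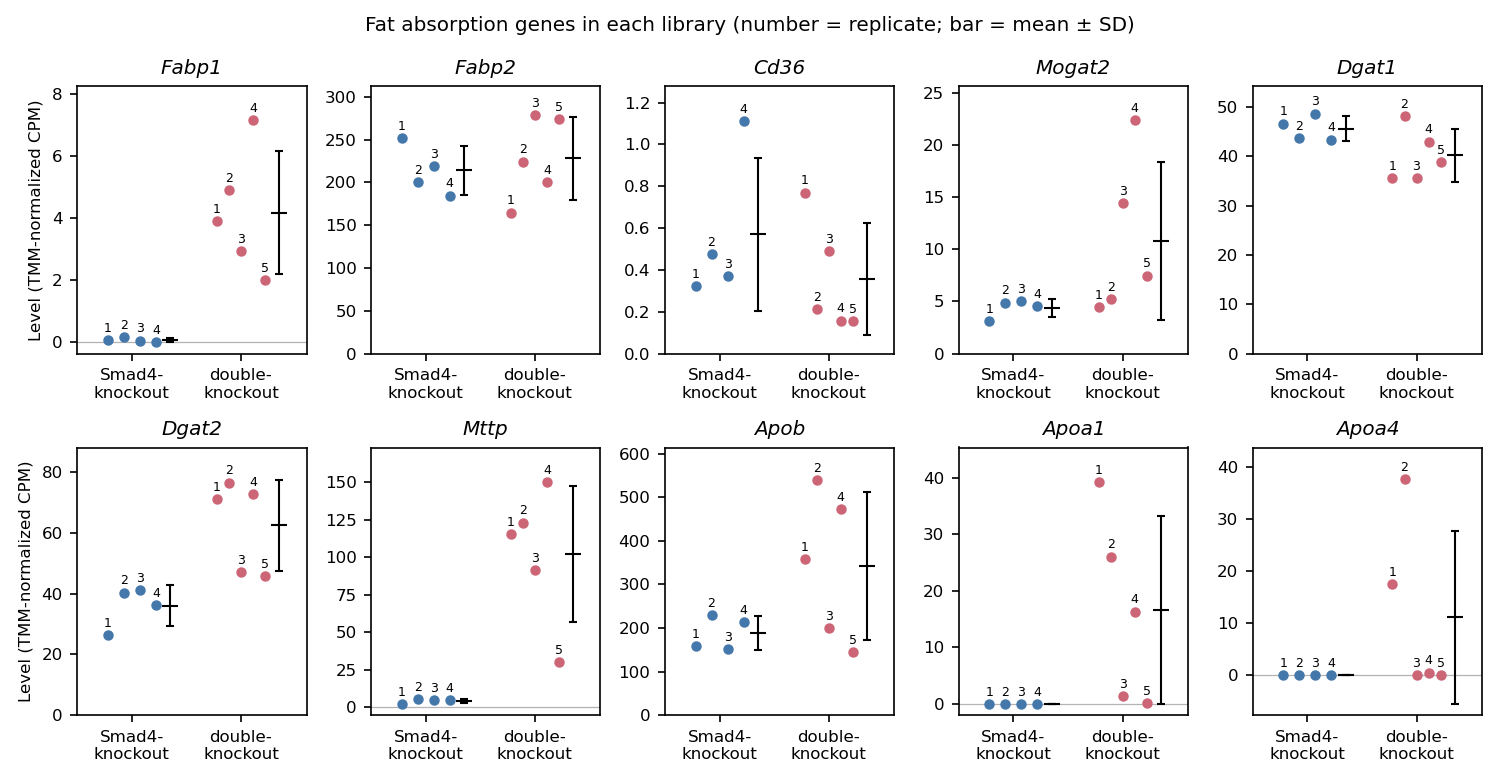
TMM-normalized CPM of the 10 genes (y axis, linear, own scale per gene) in each Smad4-knockout (blue) and double-knockout (red) library, with the replicate number at each point and the group mean ± SD as a black bar. *Fabp1*, *Dgat2* and *Mttp* separate the groups, *Apoa1* does so in double-knockout replicates 1 to 4 and by 2 counts in replicate 5, and *Mogat2* is well above the Smad4-knockout libraries in double-knockout replicates 3, 4 and 5 and close to them in 1 and 2.

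*Fabp1* and *Fabp2* encode the liver-type and the intestinal-type cytosolic fatty acid binding proteins. *Fabp1* lies at chr6:71199879-71205034 (+) and *Fabp2* at chr3:122895072-122899506 (+) of GRCm38.p6, the build named mm10 in the submitters' processing notes. The RefSeq sequences of the 250 bases before each start are shown because the paralogs gave unlike patterns. Both are written 5′ to 3′ on the gene's strand, Fabp1 from chr6:71199629-71199878 and Fabp2 from chr3:122894822-122895071.
Fabp1: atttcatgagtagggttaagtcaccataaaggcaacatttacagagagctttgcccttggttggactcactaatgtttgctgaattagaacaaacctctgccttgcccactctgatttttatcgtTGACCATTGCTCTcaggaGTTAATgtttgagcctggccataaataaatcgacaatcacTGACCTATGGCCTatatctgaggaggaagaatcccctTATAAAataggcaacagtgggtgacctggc
Fabp2: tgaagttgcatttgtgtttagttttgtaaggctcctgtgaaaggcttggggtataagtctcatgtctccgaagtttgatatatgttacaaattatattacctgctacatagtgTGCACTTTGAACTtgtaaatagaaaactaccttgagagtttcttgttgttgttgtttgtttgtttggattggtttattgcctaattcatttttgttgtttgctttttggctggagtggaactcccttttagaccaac
Capitals mark matches to 4 motifs searched on both strands, chosen after the sequences had been seen: the TATA box TATAAA (in 12.4% of 32851 promoter windows of this length), the HNF4-type CAAAGNNCA (5.49%), a DR1-type direct repeat of NGNNCA with any 1 base between its copies (14.2%) and the HNF1 half-site GTTAAT (6.43%). HNF4-type and DR1-type matches can overlap. *Fabp1* held a TATA box 30 bases upstream, DR1-type matches at 125 and 67 bases and an HNF1 half-site at 107 bases. *Fabp2* held a DR1-type match at 137 bases that overlaps an HNF4-type match. Such matches describe letters, not occupied sites.

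*Fabp1* was nearly undetected in Smad4-knockout, with 1, 3, 1 and 0 counts in replicates 1 to 4 (0.0760 ± 0.0744 CPM). In double-knockout replicates 1 to 5 it stood at 3.91, 4.91, 2.94, 7.16 and 2.02 CPM (4.19 ± 1.98). Each double-knockout library was above each Smad4-knockout library. With 5 counts in all Smad4-knockout libraries and 289 in all double-knockout libraries, the depth-adjusted ratio was 50.9 (95% exact binomial interval 21.6 to 158, for counting error only), and the adjusted p was 0.000498 (edgeR). As 3 of the 5 Smad4-knockout counts came from replicate 2, the ratio without that library was 92.4 (interval 25.3 to 766). Within the 6 Y-low libraries the adjusted p was 0.000399 (edgeR).

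*Fabp2* behaved differently. Its level was 251, 201, 219 and 185 CPM in Smad4-knockout and 165, 224, 278, 199.9 and 274 CPM in double-knockout, and the groups overlapped. The means were 214 ± 28.7 and 228 ± 48.6 CPM, a log2 fold change of 0.09 (SE 0.16, adjusted p 0.720, edgeR), and 0.17 within the 6 Y-low libraries. *Fabp1* counts were thus at most 0.0889% of *Fabp2* counts in Smad4-knockout and 0.737% to 3.58% of them in double-knockout, so *Fabp2* gave more counts than *Fabp1* in every library.

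*Cd36*, which encodes the fatty acid translocase (chr5:17781690-17888959, −), was close to the detection limit, with 5, 8, 6 and 14 counts in Smad4-knockout and 12, 3, 7, 2 and 2 in double-knockout. The groups overlapped. Mean levels were 0.569 ± 0.367 and 0.357 ± 0.269 CPM, and the log2 CPM (prior count 2) differed by -0.55 (two-sided exact permutation test over libraries, p = 0.294, smallest possible 0.0159). The difference was -0.23 without Smad4-knockout replicate 4 (exact permutation p = 0.589) and -0.81 without double-knockout replicate 1 (p = 0.114). Smad4-knockout replicate 4 also had the highest summed macrophage and leukocyte markers (149 CPM), and a part of those cells was not tested.

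*Mogat2* (chr7:99219084-99238611, −) and *Dgat2* (chr7:99153663-99182713, −) belong to one enzyme family and are neighbours, 36370 bases apart, while *Dgat1* (chr15:76502012-76512021, −) belongs to another. *Dgat2* measured 26.4, 40.3, 41.1 and 36.1 CPM in Smad4-knockout and 71.1, 76.6, 47.1, 72.7 and 45.7 CPM in double-knockout. Replicates 1, 2 and 4 of double-knockout were high, and replicates 3 and 5 lay just above the highest Smad4-knockout library. The means of 36.0 ± 6.74 and 62.6 ± 15.0 CPM gave a log2 fold change of 0.80 (SE 0.19, adjusted p 0.0214, edgeR), a 1.74-fold difference. This call was lost without Smad4-knockout replicate 1 (adjusted p 0.0594) or 4 (0.0554) and with a term for the Y-linked libraries (0.73, adjusted p 0.0886, edgeR), and it held within the 6 Y-low libraries (0.74, adjusted p 0.0281).

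*Dgat1* measured 46.6, 43.7, 48.6 and 43.3 CPM in Smad4-knockout and 35.6, 48.1, 35.5, 42.9 and 38.8 CPM in double-knockout. The groups overlapped through double-knockout replicate 2. The log2 fold change was -0.18 (SE 0.10, adjusted p 0.259, edgeR), and -0.21 within the 6 Y-low libraries. The balance between these enzymes, given as *Dgat2* counts per *Dgat1* count, was 0.567, 0.924, 0.845 and 0.833 in Smad4-knockout and 2.0, 1.59, 1.32, 1.69 and 1.18 in double-knockout. *Dgat1* thus gave more counts than *Dgat2* in all 4 Smad4-knockout libraries and fewer in all 5 double-knockout libraries.

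*Mogat2*, whose enzyme starts the monoacylglycerol route of the small intestine, measured 3.08, 4.87, 5.04 and 4.53 CPM in Smad4-knockout and 4.42, 5.19, 14.4, 22.3 and 7.44 CPM in double-knockout. Double-knockout replicate 1 lay among the Smad4-knockout libraries, replicate 2 just above them, and replicates 3 and 4 were the highest. Over all libraries the log2 fold change was 1.29 (SE 0.45, adjusted p 0.0845, edgeR), so *Mogat2* was not called. Within the 6 Y-low libraries it was 2.07 (SE 0.23, adjusted p 0.000562, edgeR), and with a term for the Y-linked libraries 2.06 (adjusted p 0.0018). The double-knockout libraries of the Y-low fit are replicates 3 and 4, the highest in *Mogat2*. Leaving out 1 library moved the change both ways: it was 0.85 (adjusted p 0.163, edgeR) without double-knockout replicate 4, 1.17 (adjusted p 0.139) without replicate 3 and past the threshold without replicate 1 (adjusted p 0.0441).

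**Figure D2:**
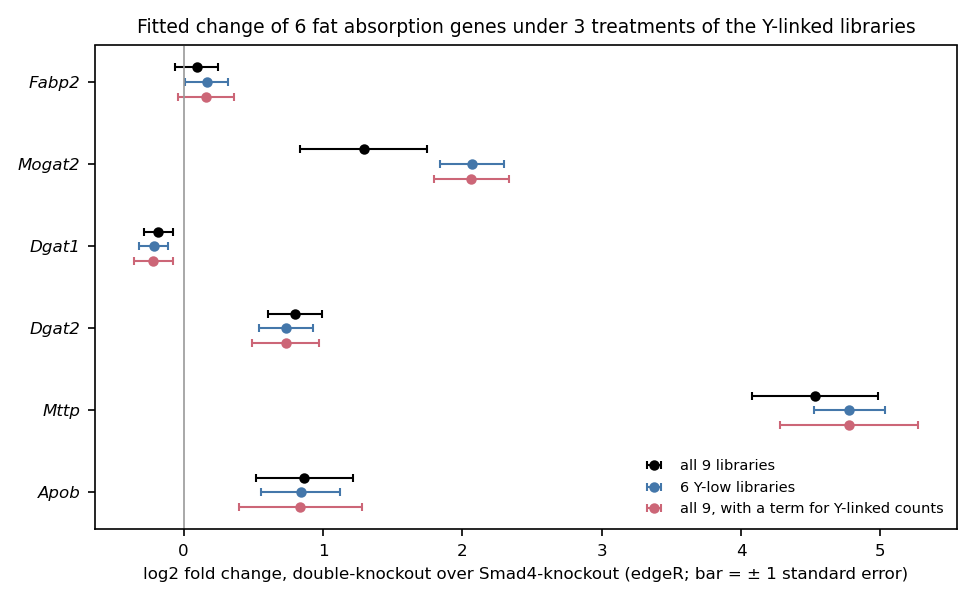
Log2 fold change of double-knockout over Smad4-knockout (x axis, bars ± 1 SE, edgeR) for 6 genes, with all 9 libraries (black), within the 6 Y-low libraries (blue) and with a term for the Y-linked libraries (red). *Mogat2* moves from 1.29 to 2.07 and 2.06, while *Mttp* stays between 4.53 and 4.78.

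*Mttp* (chr3:138089855-138143418, −) had the largest fold change of those of the 10 genes with a mean above 1 CPM in both groups. It measured 2.37, 5.47, 4.73 and 5.08 CPM in Smad4-knockout and 116, 123, 91.4, 150.1 and 30.1 CPM in double-knockout. Even replicate 5, the lowest double-knockout library, was well above all Smad4-knockout libraries. The means were 4.41 ± 1.39 and 102 ± 45.4 CPM, a log2 fold change of 4.53 (SE 0.45, adjusted p 0.000285, edgeR) or 23.1-fold. The change was 4.78 (SE 0.25, adjusted p 1.07e-05, edgeR) within the 6 Y-low libraries. For that change the sequence just before the outermost annotated start of *Mttp* is shown, chr3:138143419-138143668, minus strand. This window held no match to the 4 motifs. Sequence before any other start of *Mttp* was not searched, so the absence of matches covers these bases alone.
Mttp: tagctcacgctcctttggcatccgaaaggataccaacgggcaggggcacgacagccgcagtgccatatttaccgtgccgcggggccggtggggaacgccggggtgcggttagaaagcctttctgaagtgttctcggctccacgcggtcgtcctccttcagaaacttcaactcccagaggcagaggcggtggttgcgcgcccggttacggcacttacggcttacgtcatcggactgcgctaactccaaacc

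*Apob* (chr12:7977629-8016839, +) was abundant in both groups, at 158, 230.1, 151 and 213 CPM in Smad4-knockout and 358, 539, 199, 473 and 144 CPM in double-knockout. Double-knockout replicates 1, 2 and 4 were above all Smad4-knockout libraries, replicate 3 lay among them and replicate 5 lay below them. The means of 188 ± 39.3 and 343 ± 170.1 CPM gave a log2 fold change of 0.87 (SE 0.35, adjusted p 0.119, edgeR), and *Apob* was not called. Without double-knockout replicate 5 the change was 1.07 (adjusted p 0.0235, edgeR), without replicate 2 it was 0.65 (adjusted p 0.224) and without replicate 4 it was 0.73 (adjusted p 0.210), whereas within the 6 Y-low libraries it was 0.84 (adjusted p 0.0643). *Mttp* counts amounted to 1.50% to 3.14% of *Apob* counts in Smad4-knockout and 20.9% to 45.9% in double-knockout. This ratio of the transfer protein's transcript to that of its acceptor separated all libraries by group, as *Mttp* alone already did.

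*Apoa1* (chr9:46228630-46230469, +) and *Apoa4* (chr9:46240844-46243458, +) lie 10374 bases apart in the apolipoprotein cluster of chromosome 9, and *Setd2* lies on the same chromosome, 64.3 Mb from *Apoa4*. Their promoter windows are shown because the pair shared a detection pattern, Apoa1 covering chr9:46228380-46228629 and Apoa4 chr9:46240594-46240843, plus strand.
Apoa1: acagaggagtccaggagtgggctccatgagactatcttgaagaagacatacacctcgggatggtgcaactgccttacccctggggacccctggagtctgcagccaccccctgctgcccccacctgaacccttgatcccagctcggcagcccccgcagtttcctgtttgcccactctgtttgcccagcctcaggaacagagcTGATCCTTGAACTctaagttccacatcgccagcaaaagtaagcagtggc
Apoa4: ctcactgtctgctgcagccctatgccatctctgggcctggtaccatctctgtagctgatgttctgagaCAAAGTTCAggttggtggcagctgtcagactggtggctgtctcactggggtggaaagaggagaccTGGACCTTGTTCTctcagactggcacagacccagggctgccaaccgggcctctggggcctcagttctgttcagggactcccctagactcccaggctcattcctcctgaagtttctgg
*Apoa1* held a DR1-type match 49 bases upstream of its start, and *Apoa4* an HNF4-type match at 182 bases and a DR1-type match at 117 bases.

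*Apoa1* gave no count in any Smad4-knockout library and measured 39.2, 26.0, 1.40, 16.3 and 0.155 CPM in double-knockout (16.6 ± 16.6). Replicates 1, 2 and 4 were high, replicate 3 gave 20 counts, and the 2 counts of replicate 5 lay under the floor of 3 counts per library. Against that floor the double-knockout mean was at least 83.8-fold higher (55.3-fold without replicate 1 and 44.6-fold within the 6 Y-low libraries), and the adjusted p was 0.0275 (edgeR). The call was lost without any 1 of the Smad4-knockout libraries (adjusted p 0.0563 to 0.0701, edgeR) and with a term for the Y-linked libraries (0.0758), and it held within the 6 Y-low libraries (0.00782).

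*Apoa4* likewise gave no count in Smad4-knockout, and measured 17.4, 37.6, 0.0699, 0.551 and 0 CPM in double-knockout (11.1 ± 16.6). Nearly all of its counts came from replicates 1 and 2, and replicate 5 was at 0 like the Smad4-knockout libraries. The double-knockout mean was at least 56.1-fold above the floor of 3 counts per library. That bound was 22.8-fold without replicate 2 and 1.56-fold within the 6 Y-low libraries, whose double-knockout libraries (replicates 3 and 4) held 1 and 7 counts. The gene was removed by the filter, and its log2 CPM (prior count 2) was 3.60 higher in double-knockout (two-sided exact permutation test, p = 0.0873), and p was 0.143 to 0.179 (exact permutation) when any 1 library other than double-knockout replicate 5 was left out. Without replicate 5, the one double-knockout library at 0, it was 4.50 higher, and p was 0.0286, the smallest that an exact permutation of 4 against 4 libraries can give. Without the filter, the adjusted p of *Apoa4* was 0.0299 (edgeR).

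The neighbours of this pair were near or at 0. *Apoc3*, the gene between them and an inhibitor of triglyceride clearance, gave 1, 1, 1 and 0 counts in Smad4-knockout and 2, 7, 0, 1 and 0 in double-knockout. *Apoa5*, an activator of lipoprotein lipase, gave 0 counts in every library.

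Divided by transcript length (CPM per kilobase of exon, GENCODE M21), the order of the levels changed between groups. In Smad4-knockout *Fabp2* stood first at 222, followed by *Dgat1* at 14.9, *Apob* at 13.5, *Dgat2* at 11.7, *Mogat2* at 2.39 and *Mttp* at 0.711. The neighbours *Dgat1* and *Apob*, and *Apob* and *Dgat2*, overlapped in their spread, the SDs of *Dgat1*, *Apob* and *Dgat2* being 0.826, 2.82 and 2.19. In double-knockout *Fabp2* again stood first at 236, followed by *Apob* at 24.6, *Dgat2* at 20.3, *Mttp* at 16.5, *Apoa1* at 13.4 and *Dgat1* at 13.1. Apart from *Fabp2*, these neighbours overlapped in their spread, with SDs of 12.2 for *Apob*, 4.86 for *Dgat2*, 7.31 for *Mttp*, 13.4 for *Apoa1* and 1.76 for *Dgat1*. *Fabp1* (7.57), *Apoa4* (6.13) and *Mogat2* (5.86) followed, and *Cd36* was last at 0.0994.

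The double-knockout libraries differed among themselves, and several genes shared an order. With 5 libraries no correlation was computed, and each pair of genes is described instead by how many of the 10 pairs of libraries it put in the same order. *Mttp* and *Fabp1* placed the libraries in the same order (replicates 4, 2, 1, 3 and 5, from high to low), as did *Apob* and *Dgat2* (replicates 2, 4, 1, 3 and 5). *Apoa1* matched *Apoa4* in 9 of the 10 pairs, and *Apob* matched *Mttp* in 9. *Fabp2* matched *Apoa1* in 2 of the 10 pairs, *Apoa4*, *Mttp* and *Fabp1* in 3 each, *Apob*, *Dgat1*, *Dgat2* and *Cd36* in 4 each and *Mogat2* in 7. *Mogat2* also had an order of its own (replicates 4, 3, 5, 2 and 1) and matched *Apoa1* in 3 pairs.

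Replicate 5 was lowest for 7 of the 10 genes in CPM, although for *Cd36*, which is among them, replicates 4 and 5 gave 2 counts each. The highest library was replicate 2 for 4 genes, replicate 4 for 3, replicate 1 for 2 and replicate 3 for 1. The width of the spread also varied: apart from *Apoa1*, *Apoa4* and *Cd36*, which reached 2 counts or fewer in a double-knockout library, the highest such library exceeded the lowest 5.05-fold for *Mogat2*, 4.99-fold for *Mttp*, 3.74-fold for *Apob*, 3.55-fold for *Fabp1*, 1.69-fold for *Fabp2*, 1.68-fold for *Dgat2* and 1.35-fold for *Dgat1*. These orders share their libraries and scaling and are descriptions only.

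**Figure D3:**
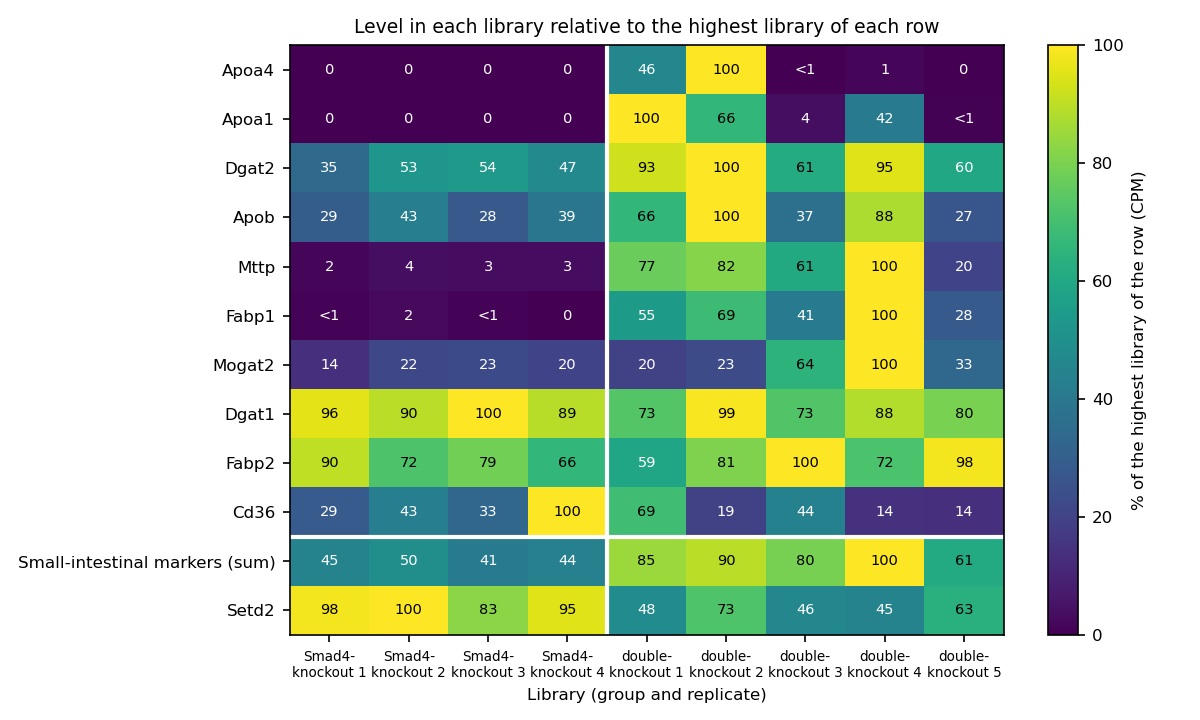
Level of each gene in each library as a percentage of the highest library of its row (colour and printed value), with the summed small-intestinal enterocyte markers and *Setd2* below the line. *Apoa1* and *Apoa4* are high in double-knockout replicates 1 and 2, whereas *Mttp*, *Fabp1*, *Mogat2* and the summed markers peak in replicate 4.

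Most markers of small-intestinal enterocytes were higher in double-knockout too. Of 15 markers listed, 14 were tested, 9 were higher in double-knockout and 0 lower (edgeR), where 6.76% of all genes tested were higher and 6.54% lower, and none was at 0 in all libraries. Their summed level was 1317 to 1575 CPM in Smad4-knockout and 2693, 2853, 2529, 3176 and 1938 CPM in double-knockout replicates 1 to 5, the same order of libraries as for *Mttp* and *Fabp1*. Abundant markers weigh most in that sum, and no single marker of the list gave this order. The most abundant, *Mgam* (maltase-glucoamylase), had means of 788 and 1377 CPM, a log2 fold change of 0.80 (adjusted p 0.00347, edgeR). It measured 1480, 1334, 1372, 1610 and 1090 CPM in double-knockout replicates 1 to 5. The markers were unequal: *Sis* (sucrase-isomaltase) went from a mean of 2.78 to 155 CPM, whereas *Lct* (lactase) was at 0.0546 and 0.251 CPM. Means of *Ace* (28.0 and 15.8 CPM) and *Slc15a1* (74.3 and 62.9 CPM) were lower in double-knockout and not called. The part of these cells in the results for *Fabp1*, *Mttp*, *Dgat2* and *Apoa1* was not tested.

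Markers of other cell types, some of which express these genes, were low. Hepatocyte markers summed to 19.8 to 34.5 CPM in Smad4-knockout and 13.6 to 32.7 CPM in double-knockout, and none of the 3 tested was called. *Ttr* (transthyretin) made up most of that sum, with means of 27.1 and 20.5 CPM, and *Alb* (albumin) had means of 1.61 and 1.36 CPM. Of the adipocyte markers *Lep* and *Retn* were at 0 in all libraries, and *Cidec*, a lipid droplet protein, was the only one tested and was higher (2.99 and 10.3 CPM, log2 fold change 1.78, adjusted p 0.0417, edgeR). Every other adipocyte marker had a mean of at most 0.107 CPM in either group, so *Cidec* made up nearly all of that class. Endothelial markers, led by *Vwf*, summed to 11.5 to 13.1 and 11.2 to 14.3 CPM, macrophage and leukocyte markers, led by *Ptprc*, to 52.3 to 149 and 46.5 to 87.2 CPM, and platelet markers, led by *Itga2b*, to 1.54 to 3.15 and 1.78 to 3.27 CPM, with none called, and of the platelet markers *Ppbp* was at 0 in all libraries. Pan-epithelial markers, led by *Krt8*, summed to 12798 to 14755 and 12157 to 14390 CPM, with 0 of 7 called.

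The other genes of the route were taken from a list of 63. Of these 56 were tested, 10 were higher, 3 lower and 43 not called (edgeR), where 6.76% of all genes tested were higher and 6.54% lower. The median log2 fold change was 0.15, against -0.00060 over all genes. Counts of 1 or 2 genes in a role are too small to set against these shares. The class of fatty acid uptake and activation, as listed, includes *Fabp6*, although its product, the ileal bile acid binding protein, binds bile acids. In that class *Fabp6* rose from 4.60 to 33.1 CPM (log2 fold change 2.84, adjusted p 0.00857, edgeR) and *Acsl1*, an acyl-CoA synthetase, by 0.33 (adjusted p 0.0439). The call of *Acsl1* was lost within the 6 Y-low libraries (log2 fold change 0.37, adjusted p 0.0563, edgeR), with the Y-linked term (0.37, adjusted p 0.0859) and in 7 of 9 fits that left out 1 library, all but those without Smad4-knockout replicate 1 or double-knockout replicate 5. The fatty acid transport protein gene *Slc27a1* fell by 0.76 (adjusted p 0.00241). The class had 10 genes tested, with 2 higher, the bile acid binder *Fabp6* among them, and 1 lower.

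Of 10 tested genes of glycerolipid synthesis 0 were higher, and *Gpat4*, which acylates glycerol 3-phosphate, was lower (log2 fold change -0.34, adjusted p 0.0327, edgeR). Its call was lost with the Y-linked term (-0.33, adjusted p 0.122, edgeR) and without any 1 of the Smad4-knockout libraries (-0.36 to -0.32, adjusted p 0.0621 to 0.0933) or without double-knockout replicate 1, 2 or 4. Of 10 particle and lipidation genes 2 were higher: *Prap1*, a lipid-binding secreted protein, went from 7.43 to 30.1 CPM (2.0, adjusted p 0.0401) and *Plin3*, a droplet coat protein, changed by 0.51 (adjusted p 0.0105). The groups overlapped for *Prap1*, with double-knockout replicate 1 at 8.52 CPM and Smad4-knockout replicate 2 at 12.1 CPM, and its call was lost without any 1 of the Smad4-knockout libraries (adjusted p 0.0514 to 0.104, edgeR) or without double-knockout replicate 3 (0.0738) or 4 (0.0815). Of 16 genes of transport from the endoplasmic reticulum 4 were higher and 1 lower. These were *Mia2*, a cargo receptor at exit sites (0.98, adjusted p 0.00329), the COPII coat genes *Sec13* (0.58, adjusted p 0.00522) and *Sec23a* (0.49, adjusted p 0.00369), *Tmem41b*, a lipid scramblase (0.38, adjusted p 0.0196), and the lower *Stx5a*, a Golgi syntaxin (-0.32, adjusted p 0.0243). *Tmem41b* was lost with the Y-linked term (0.41, adjusted p 0.0522, edgeR) and without Smad4-knockout replicate 2 or 3, and *Stx5a* without any 1 of the Smad4-knockout libraries or double-knockout replicate 4.

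Of 10 transcription factors 2 were higher. *Creb3l3*, a membrane-bound factor with lipid genes among its known targets, went from 3.81 to 23.1 CPM (log2 fold change 2.60, adjusted p 0.0187, edgeR), with double-knockout libraries at 31.9, 46.0, 9.72, 24.2 and 3.95 CPM. Its lowest value was again in replicate 5. *Pparg*, a nuclear receptor for fatty acids, was higher by 0.41 (adjusted p 0.0316). With the Y-linked term both calls were lost, at 2.15 for *Creb3l3* (adjusted p 0.0828) and 0.43 for *Pparg* (adjusted p 0.0854, edgeR). Both held within the 6 Y-low libraries, at 2.15 (adjusted p 0.00299) and 0.43 (adjusted p 0.0370, edgeR). The call of *Creb3l3* was also lost without Smad4-knockout replicate 1 (0.0591), 3 (0.0611) or 4 (0.0522), and that of *Pparg* without Smad4-knockout replicate 1, 2 or 4 or double-knockout replicate 2 or 3. In all, 6 of the 13 calls in the list (*Fabp6*, *Slc27a1*, *Plin3*, *Mia2*, *Sec13* and *Sec23a*) held with each library left out and in both treatments of the Y-linked libraries. *Hnf4a*, the nuclear receptor of intestinal and hepatic epithelium, was at 895 and 924 CPM (adjusted p 0.779).

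**Figure D4:**
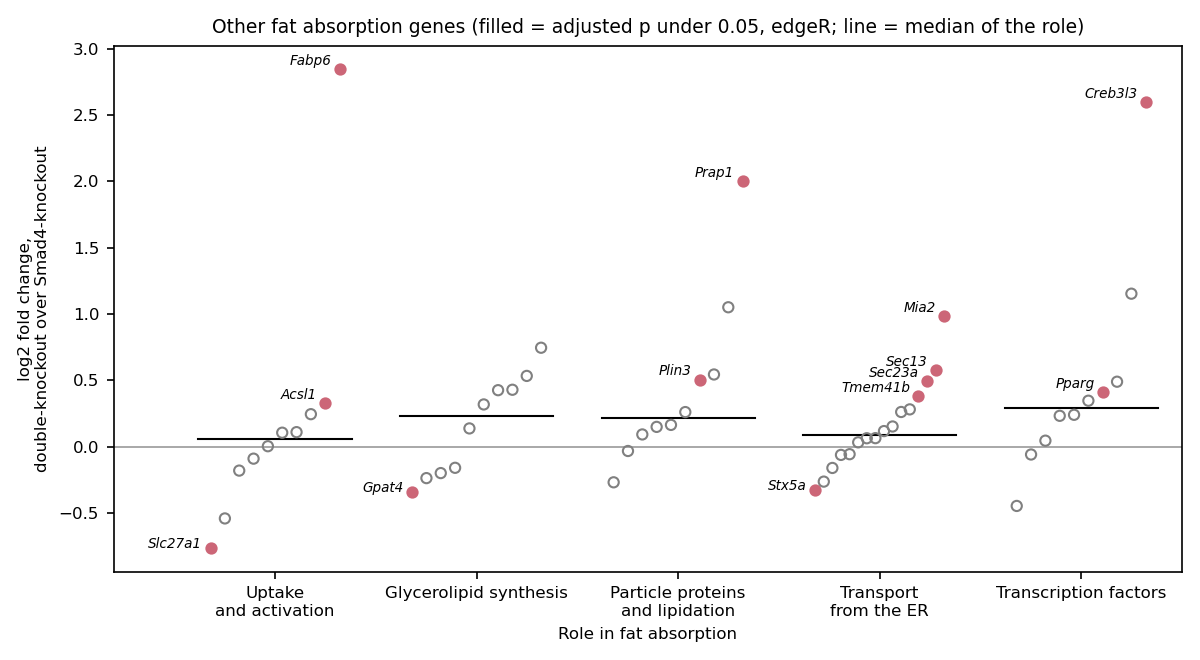
Log2 fold change of double-knockout over Smad4-knockout (y axis, edgeR) for the 56 tested genes of the list by role (x axis); filled points have an adjusted p below 0.05 and the line is the median of the role. Most genes lie near 0, with *Fabp6*, *Creb3l3* and *Prap1* at 2.84, 2.60 and 2.0. *Fabp6* is placed under uptake and activation although its product binds bile acids.

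For each of the 4 called genes the 3 tested genes nearest in pattern were found among 13700 genes, by the root mean square difference of centred log2 CPM over the 9 libraries. *Mttp* and *Fabp1* were near each other (0.49), *Fabp1* being the nearest gene to *Mttp*, followed by *Bcl2l15* (0.51) and *Fgf14* (0.53). The genes nearest to *Fabp1* were *Gm13453* (0.41), *Mttp* and *Trim13* (0.52). Those nearest to *Apoa1* were *Enpep* (1.26), *Slc6a19* (1.36) and *Npc1l1* (1.41), which encode a brush border peptidase, an amino acid transporter and the cholesterol uptake protein. Those nearest to *Dgat2* were *Irf8* (0.16), *Eva1a* (0.18) and *Map3k15* (0.18). The difference is not scaled and grows with the size of a gene's change (log2 fold change 0.80 for *Dgat2*, 4.53 for *Mttp*). It therefore ranks the neighbours of 1 gene and does not compare the called genes. The difference between the groups is part of it, so nearness largely restates a like fold change.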

How the data were processed

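The authors deposited 1 table of read counts per gene for 9 libraries, in whole numbers and not normalized. HISAT2 2.0 and mm10 are named in the submitters' processing notes; the counting program, its annotation and strand setting are not given in the sources used here, so reads of overlapping genes may be shared. Samples were grouped by the labelled genotype. Nothing in the labels says that replicates are separate animals, so p-values measure the spread between these libraries, part of which may be technical. The split in Y-linked counts shows that the double-knockout libraries did not all come from 1 animal. All 16 within-group pairs of libraries differed by more than counting noise (lowest chi-square per gene 10.0).

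Counts were tested in edgeR 4.0.16 (R 4.3.3; filterByExpr, TMM, glmQLFit, glmQLFTest; Benjamini-Hochberg adjustment, threshold 0.05), and 14593 of 46095 genes passed the filter. The common biological coefficient of variation was 21.2%. Genes removed by the filter were tested by exact permutation over libraries. Intervals and floors cover counting error only. DESeq2 1.42.0, limma 3.58.1, other filters and libraries left out were the alternatives. The columns of the table all matched a sample. The genes, lists and tests were chosen with earlier results of these data known. Named were all 10 genes, the called genes of the wider list, *Setd2*, the 3 nearest genes of each called gene, and markers most abundant in their list or at 0; *Lct*, *Apoc3*, *Apoa5*, *Hnf4a*, *Sis*, *Alb*, *Ace* and *Slc15a1* were named after their values were seen. Promoter windows are from RefSeq (GRCm38.p6), with 7 of the 10 genes matched and the 50 bases after each start dropped. *Gpat3* was matched by its older symbol, *Agpat9*.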

Additional observations from a re-analysis of the deposited data

How the results depend on the processing

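The number of the 10 genes called higher was 4. It was 2 of 6 tested when at least 10 counts were required in every library (6.39% of all genes tested then being called higher), 2 to 5 when 1 library was left out (3.06% to 9.52%; 2 without Smad4-knockout replicate 1 or 4), 6 with DESeq2 (8.23%), 5 with limma-voom (9.61%), and 3 with a term for the Y-linked libraries (4.47%). Within the 6 Y-low libraries the number was 5 (9.29%). None of the 10 genes was called lower under any alternative. In the list of other genes, the 10 higher became 18 with limma-voom, 19 within the 6 Y-low libraries, 16 at an adjusted p below 0.1, and 6 to 15 with 1 library left out, while the share of all genes tested called higher went from 6.76% to 9.61%, 9.29%, 10.6%, and 3.06% to 9.52%. The 3 lower became 5 with DESeq2, within those 6 libraries and at an adjusted p below 0.1, and 1 to 3 with 1 library left out, while the share of all genes called lower went from 6.54% to 7.6%, 10.1%, 10.6%, and 2.64% to 9.08%. The difference of *Apoa4* was 2.48 to 4.50 with 1 library left out and 4.95 with a prior count of 0.5; that of *Cd36* was -0.81 to -0.23. *Mogat2* was called with DESeq2 (adjusted p 0.0193) and limma-voom (0.0346). *Apoa1* was removed by the filter without any 1 of double-knockout replicates 1 to 4. A replicate block gave 5 genes higher (5.39% of all genes), *Apob* among them (0.99, adjusted p 0.0113), but the numbers do not pair the samples (correlations of deviations -0.10, -0.10, 0.02 and 0.09). Replicate 5 exists only in double-knockout, so the block took that library out of the genotype comparison. Leaving it out without a block also called *Apob* (1.07, adjusted p 0.0235, edgeR). The cause of the differences between the alternatives was not tested. No result reversed. Counts were low for *Cd36* (2 to 14 per library) and, in Smad4-knockout, for *Fabp1* (0 to 3) and *Apoa1* and *Apoa4* (0), which limits the precision of their ratios.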
